A study of Bos taurus with 2 samples.

Results

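The cytoplasmic ribosomal protein genes were followed through single cells of bovine chimeric embryos at day 25. They were taken by name, as every row called RPL or RPS followed by a number, with an optional letter, L or X at the end, together with RPLP0, RPLP1, RPLP2 and RPSA. Names that end in L followed by 1 (RPL7L1, RPL22L1 and RPL26L1) were read as having the L ending and were kept. The kinases that phosphorylate ribosomal protein S6 (RPS6K) were left out. Of 17846 genes in the count table, 82 met this rule. There were 50 proteins of the large subunit and 32 of the small subunit, and 6 of the 82 are paralogs, that is, second genes close in sequence to a main copy (RPL3L, RPL7L1, RPL22L1, RPL26L1, RPL36AL and RPS27L). RPL10L, RPL39L and RPL41 were not analysed here.

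The embryos carried incorporated bovine embryonic stem cells (bESC), were flushed at day 25, dissociated with papain and sorted, and all samples shared this treatment. The 2 libraries, replicate 1 and replicate 2, form 1 group, and the labels name neither the number of embryos in a library nor a breed or sex. P-values of the main fits therefore measure how far group differences varied between these 2 libraries, after the overall difference between the libraries was removed. This spread was pooled over genes and may be technical. RNA was captured at its 3′ end on the 10x Genomics platform and counted as unique molecular identifiers (UMI), each standing for 1 captured transcript. Replicate 1 held 1973 barcodes and 11182089 UMI, and replicate 2 held 2464 barcodes and 15427708 UMI. The libraries shared 6 barcode sequences.

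Ribosomal proteins pack with ribosomal RNA into a small subunit, which reads the mRNA, and a large subunit, which joins amino acids. Their mRNAs are among the most abundant in growing cells, begin with a tract of pyrimidines (the 5′ TOP tract), and are translated together under control of the mTOR pathway. Neural progenitors divide and make much protein, while neurons have left the cell cycle.

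Cells were compared in a window of 3000 to 15000 UMI, which kept 1382 and 1782 cells. Each was placed in a group by marker genes detected in a fixed number of its UMI outside the ribosomal protein genes. The ribosomal protein genes were thus not used as markers, but a high share could leave a cell without a group. At least 2000 UMI outside these genes were needed, and 4 and 1 window cells had fewer. A group here is a range on marker counts and not a cell type with a sharp border. Of 3164 cells in the window, 1550 reached a group, and 440 of those would lose it or change to another if the marker limit were 1 higher. Neural progenitors (219 and 287 cells in replicates 1 and 2), mitotic progenitors (125 and 169), neurons (211 and 238), noradrenergic neurons (36 and 41) and mesenchyme (33 and 58) were large enough to test. The markers of the noradrenergic group summed to 3731 and 3293 CPM there (UMI of a gene per 1000000 UMI of the sum), against 364 and 354 in progenitors. Mesenchymal markers summed to 25758 and 26914 CPM in the mesenchyme group, against 164 and 185.

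Ribosomal protein transcripts made up 12.6% of all UMI in replicate 1 and 15.7% in replicate 2. Within the window the share per cell ran from 0.586% to 78.2% around a median of 4.21% in replicate 1. It ran from 0.492% to 76.0% around a median of 9.79% in replicate 2. The shares spread widely around these medians. In replicate 1, 53.4% of cells were below 5%, here called the low range, 36.3% were at 10% or more, and 10.3% lay between. In replicate 2 the corresponding figures were 40.5%, 49.6% and 9.88%. These limits serve description and do not mark a gap. Shares of 10% to 15% were held by 10.1% and 9.26% of cells, and shares of 20% to 30% by 13.3% and 23.9%.

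The low range was found in each of the progenitor, mitotic and neuronal groups. Shares below 5% were seen in 48.9% and 38.0% of progenitors, 62.4% and 55.6% of mitotic progenitors, and 55.5% and 45.4% of neurons. They were less common in noradrenergic neurons, at 13.9% and 7.32%, and in mesenchyme, at 15.2% and 8.62%. No test was made of these percentages, since cells of a library are not replicates. Among cells at 10% or more, the median share was 22.2% and 25.2% in progenitors, 14.4% and 16.1% in neurons, 12.6% and 13.1% in noradrenergic neurons, and 25.4% and 24.3% in mesenchyme.

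**Figure D1:**
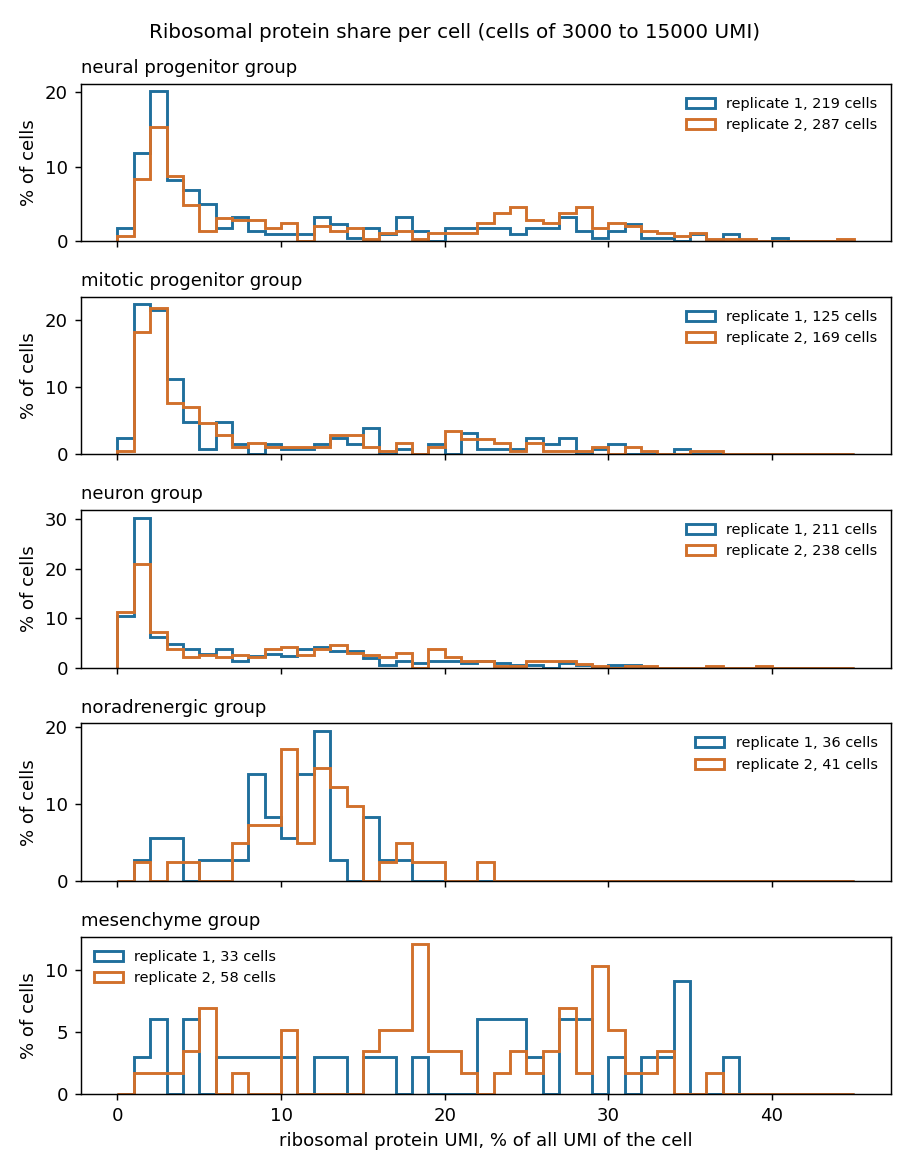
Histograms of the ribosomal protein share per cell (x axis, percent of the cell's UMI) by group, with the y axis giving the percent of the group's cells in each bin of 1 percentage point and a line for each replicate. Progenitors, mitotic progenitors and neurons pile up below 5% and trail to above 20%, while noradrenergic neurons gather near their medians of 11% and 12.1%.

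Over the whole window the median share was 5.23% and 10.0% in progenitors, 3.20% and 4.41% in mitotic progenitors, and 3.83% and 6.92% in neurons. It was 11% and 12.1% in noradrenergic neurons and 22.8% and 19.8% in mesenchyme. As means of the 2 library medians these were 7.63% ± 3.38 (SD, n = 2), 3.80% ± 0.860, 5.38% ± 2.18, 11.6% ± 0.767 and 21.3% ± 2.16. Mesenchyme was highest of the 5 tested groups in both libraries. Neuronal medians were below those of progenitors in each library, though the ranges of these groups over the libraries overlapped. Smaller groups were also measured, with no test. Newborn neurons (16 and 23 cells) had medians of 13.5% and 18.3%, floor plate cells (16 and 22) 12% and 22.9%, and roof plate cells (11 and 13) 6.32% and 19.1%. The 8 and 10 epithelial cells had 10.9% and 28.5%.

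The share rose with the total UMI of the cell, which includes the ribosomal protein UMI themselves. A cell rich in these is thereby moved toward a deeper range, and the part of this in the rise was not tested. Among progenitors of 3000 to 6000 UMI the median was 2.98% in replicate 1 and 3.35% in replicate 2. From 6000 to 10000 UMI it was 7.18% and 13%, and from 10000 to 15000 UMI it was 27.4% and 27.3%. Of the 32 and 76 progenitors in this last range, 93.8% and 97.4% had a share of 10% or more. Neurons did not follow it as closely: at 10000 to 15000 UMI their medians were 11.2% and 15.7%, and 35.7% and 16.7% of them remained below 5%. Mitochondrially encoded transcripts were at a median of 0.272% and 0.324% in progenitors below 5% and 0.198% and 0.179% in those at 10% or more, and the part of RNA quality in the share was not tested.

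**Figure D2:**
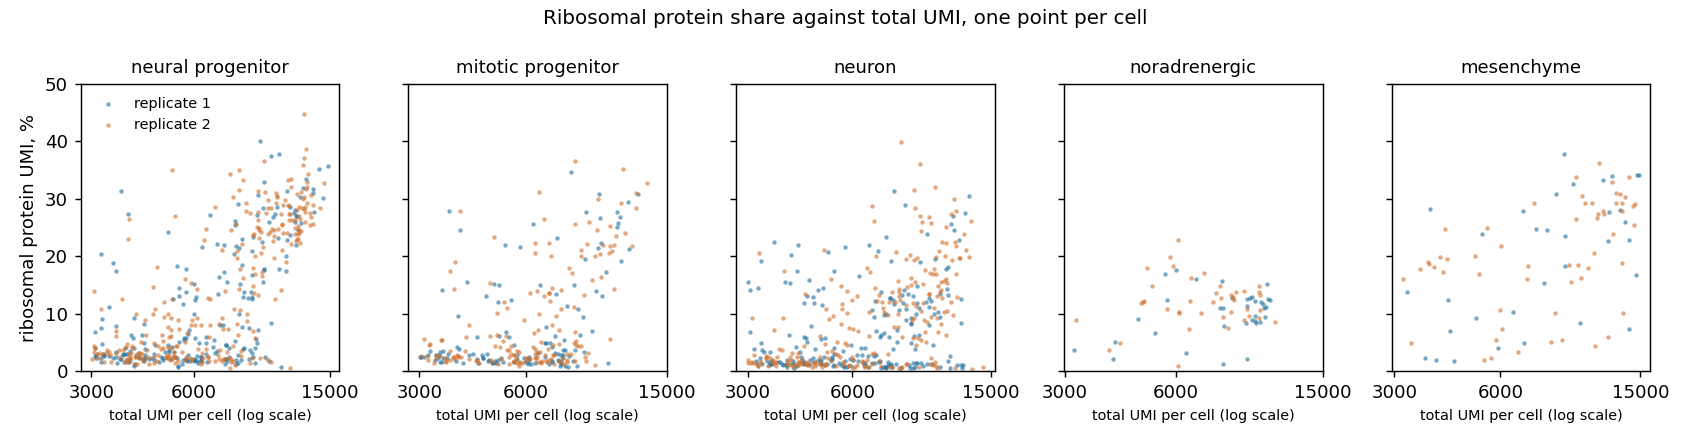
The ribosomal protein share of each cell (y axis, percent of its UMI) against its total UMI (x axis, log scale) in the 5 tested groups, 1 point per cell, coloured by replicate. In progenitors the points leave the floor mostly above 6000 UMI, whereas neurons with low shares are found along the whole axis.

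To compare groups at matched depth, cells were paired with the progenitor of the same library nearest in total UMI, where one was free within 10%. Of the neurons 202 of 211 and 234 of 238 were paired, of the mitotic progenitors 125 of 125 and 165 of 169, and of the other groups every cell. Mitotic progenitors averaged 8.07% against 9.70% in their paired progenitors in replicate 1, and 8.89% against 10.2% in replicate 2. Neurons averaged 7.14% against 10.3%, and 9.28% against 12.9%. Both groups were thus lower than paired progenitors in both libraries, by a mean difference of -1.49 percentage points ± 0.185 (SD, n = 2) for mitotic progenitors and -3.43 ± 0.335 for neurons. Noradrenergic neurons averaged 10.1% against 16.7%, and 12% against 13.4%, a difference of -4.00 ± 3.64 whose size differed widely between libraries. Mesenchyme averaged 19.7% against 17.5%, and 20.2% against 17.7%, a difference of 2.37 ± 0.198. The medians of the paired cells did not all follow these means. They were lower than in the paired progenitors in both libraries for mitotic progenitors (3.20% against 4.29%, and 4.41% against 5.37%) and for neurons (3.58% against 4.93%, and 7.08% against 8.13%). In mesenchyme the median was 22.8% against 18.3% in replicate 1 but 19.8% against 22.9% in replicate 2, and in noradrenergic neurons 11% against 17.8% and 12.1% against 10.8%. The direction for these groups thus turned with the measure in replicate 2. Total UMI includes the UMI of the set, so pairing on it is not independent of the share. With UMI outside the set for window and pairing, mesenchyme differed by 7.60 and 4.67 points and mitotic progenitors by -0.975 and -4.51. Neurons then differed by -4.25 and -5.41 points and noradrenergic neurons by -5.66 and -4.24. In this pairing only 35 of 39 and 59 of 78 mesenchyme cells found a partner. Mesenchyme medians there were 24.8% against 8.40% in replicate 1 and 23.9% against 22.3% in replicate 2. An exact permutation test over 2 libraries cannot reach 0.05, so none was made.

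These differences depended on depth. Between 3000 and 6000 UMI mesenchyme exceeded its paired progenitors by 2.92 and 12 points, and noradrenergic neurons did so by 1.58 and 4.85 points. This range rests on few pairs, 10 and 17 for mesenchyme and 8 and 11 for noradrenergic neurons. Between 6000 and 15000 UMI mesenchyme differed by 1.93 and -1.41 points and noradrenergic neurons by -8.91 and -3.73 points. The noradrenergic share differed less between these ranges than that of the paired progenitors, with medians of 7.92% and 12.1% in the shallower range and 11.2% and 12.1% in the deeper one, against 3.99% and 5.37%, then 22.4% and 15.2%, in the progenitors.

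GFP transcripts, which have a row of their own in the count table, moved with the share. The cells to which the GFP belongs are not stated in the sources used here. Progenitors with no GFP UMI (24 and 30 cells) had a mean share of 2.67% in both libraries. Progenitors with at least 1 GFP UMI, paired to them on total UMI, averaged 8.50% and 7.93%. The difference was 5.54 points on average over the libraries, and 6.83 points where at least 3 GFP UMI were asked for. GFP is itself a transcript sampled from the same cells, and neither capture nor the cells' origin was tested as the source of the difference.

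The single genes spanned a wide range of levels. They are given in CPM over all window cells, counted at transcript ends, so no length enters. Among the highest were RPS12, a small-subunit protein, with 3029 and 4055 CPM, and RPL10 with 2721 and 3634. RPS15 had 2632 and 3386, and RPS18, which lies in the head of the small subunit, had 2641 and 3336. Most genes differed little from their neighbours in this order, and replicate 2 was above replicate 1 for each of the 82, as for the summed share. Ribosomal protein genes have many processed copies in mammalian genomes, and no source used here gives how the counting assigned reads that fit more than 1 copy.

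The lowest 5 genes were paralogs. RPL3L, the form of RPL3 known from striated muscle, had 0.209 and 0.226 CPM, from 6 UMI in all barcodes. RPL22L1, the partner of RPL22, had 52.1 and 58.7. RPL26L1 had 101 and 126, RPL7L1 121 and 134, and RPS27L 125 and 153. The main copies RPL22, RPL26, RPL7 and RPS27 were all far above their partners: in progenitors RPL22 was at 893 and 1067 CPM against 36.5 and 61.6 for RPL22L1. RPL36AL was an exception: at 390 and 376 CPM in progenitors it was close to RPL36A, at 358 and 383. The lowest of the main copies were RPL36A and RPL4, a large-subunit protein that reaches into the peptide exit tunnel.

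**Figure D3:**
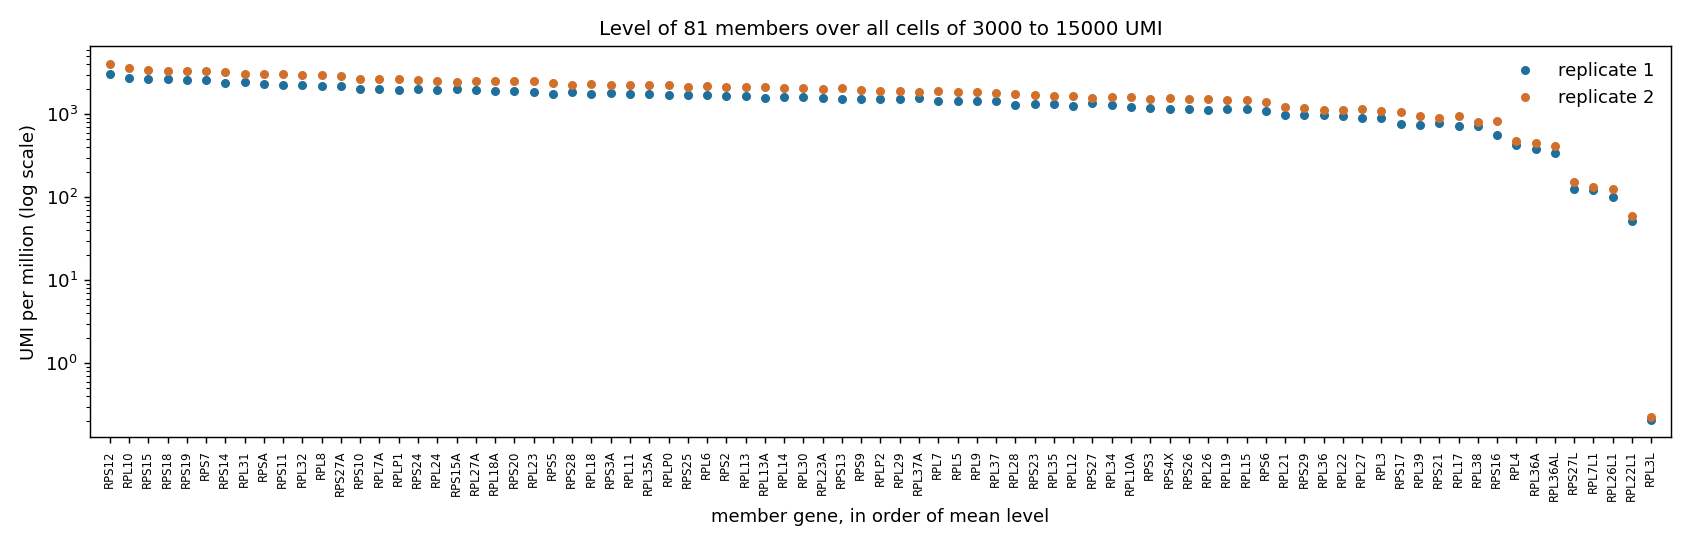
Level of 81 of the 82 ribosomal protein genes over all window cells (y axis, CPM, log scale), in order of mean level on the x axis, with 1 point per replicate. The levels fall gradually down to RPL36AL and then step down to the 5 lowest paralogs.

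The subunits were balanced across the groups. Large-subunit genes gave 54.1% and 54.0% of ribosomal protein UMI over all window cells. They gave 54.1% in progenitors of either library, 53.6% in mesenchyme of either, 55.4% and 54.8% in neurons, and 56.8% and 55.8% in noradrenergic neurons. Within groups, the summed large and small subunit levels of a cell had Pearson correlations from 0.97 to 0.99 over 33 to 287 cells, as a description, since points share a library and the same range of total share.

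Cells of the low range held less of every main copy rather than lacking a few. Per UMI outside the set, progenitors at 10% or more had 10.6 and 11.8 times the ribosomal protein level of those below 5%, a ratio that follows from how the cells were split and carries no test. Over the 76 main copies the ratio had a median of 10.7 and 12.6. It was smallest for RPL4, at 4.91 and 4.43, and largest for RPL11 in replicate 1, at 17.3, and for RPS3 in replicate 2, at 18.1. The paralogs stood at the lower end, with 1.58 and 1.95 for RPL22L1, 2.25 and 1.76 for RPL7L1, and 2.78 and 2.06 for RPS27L, on 12 to 76 UMI in each class of cells. RPL26L1 reached 4.75 and 5.04, and RPL36AL 8.03 and 7.14.

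Other genes of the translation machinery followed to different degrees in the same cells. The 20 translation factors and other genes with a TOP tract had 5.65 and 6.72. Ribosome assembly factors, such as nucleolin and nucleophosmin, had only 1.71 and 1.78, mitochondrial ribosomal proteins 2.11 and 1.95, and mitochondrially encoded genes 0.677 and 0.651. The 10 S6 kinase genes left out by the rule had 0.725 and 0.415. GFP had 6.83 and 6.41.

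The level of each gene was also correlated over cells with the summed ribosomal proteins, on log2(thinned UMI + 1), within each library. This covered 3829 genes, of which 80 were ribosomal proteins, and 75 of these 80 were among the 100 highest. The median of the mean r over the set was 0.85, and RPL7L1 had its lowest, 0.15. Outside the set the highest values included 0.87 for ZC3H10, named for a zinc finger protein (whether all UMI assigned to that name come from its transcripts was not tested), 0.86 for the elongation factor EEF1A1, 0.85 for TPT1 and 0.83 for FAU, which encodes a ribosomal protein fused to a ubiquitin-like protein. The lowest values were -0.49 for DENND5A and -0.48 for both ZSWIM6 and KANSL1. The points are 1382 and 1782 cells that share a library and one range of depth, and each member is part of the sum it is correlated with.

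The counts of thinned cells were then summed by group and library, and each group was set against progenitors with edgeR's quasi-likelihood test over 9477 genes. RPL3L was too low to be tested, and 81 of the 82 genes were. In mesenchyme 79 of 81 rose, where 14.6% of all genes tested were called higher, and 1 fell, where 11.5% were called lower. The median log2 fold change was 1.12, against -0.17 over all genes. RPLP0, the base of the stalk that recruits elongation factors, was at 1231 and 1965 CPM in progenitors and 2353 and 2632 in mesenchyme (log2 fold change 1.14, SE 0.15, edgeR adjusted p = 1.67e-12). RPS6, the S6 protein that the kinases phosphorylate, was at 855 and 1222 in progenitors and 1838 and 1776 in mesenchyme (1.29, SE 0.16, edgeR adjusted p = 1.43e-14). For both genes the mesenchyme values lay above those of progenitors with no overlap. With cells paired on total UMI the log2 fold changes were smaller, 0.32 for RPLP0 and 0.48 for RPS6 (edgeR adjusted p = 0.0129 and 0.00303).

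RPL7L1, the paralog of RPL7, was the gene that fell in mesenchyme, from 135 and 157 CPM in progenitors to 30.3 and 57.5 (log2 fold change -1.14, SE 0.40, edgeR adjusted p = 0.0203). These levels rest on 89 and 135 UMI in progenitors and on 3 and 10 in mesenchyme. RPL26L1, at 50.5 and 97.7 CPM in mesenchyme against 100.5 and 103 in progenitors, did not pass the test.

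Part of the rise in mesenchyme moved with depth and scaling. Median UMI per cell was 8660 and 9850 in mesenchyme and 6302 and 7377 in progenitors. With cells paired one to one on total UMI, 57 of 81 genes rose, where 19.4% of all genes were called higher, and 1 fell, where 11.5% were called lower, with a median log2 fold change of 0.48. With total UMI as library size in place of TMM factors the median of all genes went from -0.17 to -0.66, that of the ribosomal protein genes was 0.64, and 63 genes rose and 1 fell (9.86% and 28.4% of all genes). Between 3000 and 6000 UMI, on 10 and 17 cells, 63 rose and 0 fell (6.66% and 2.85%), and between 6000 and 15000 UMI 64 rose and 1 fell (13.6% and 11.1%). Early response genes, which dissociation can induce, were all 8 higher in mesenchyme (median log2 fold change 2.52), and the mitochondrial share was 1.41% and 0.906%, against 0.236% and 0.226% in progenitors. The part of these in the result was not tested.

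In mitotic progenitors 67 of 81 genes fell and 0 rose (2.61% and 3.09% of all genes), with a median log2 fold change of -0.61 against -0.01 over all genes. An unadjusted p under 0.05 was reached by 77 of the 81, and DESeq2 called 57 lower. RPLP1, the stalk protein that pairs with RPLP2, went from 1671 and 2145 CPM in progenitors to 1016 and 1213 (log2 fold change -0.82, SE 0.15, edgeR adjusted p = 2.22e-06). RPL26, which lies near the tunnel exit, went from 865 and 1293 to 563 and 572 (-0.97, SE 0.16, edgeR adjusted p = 7.50e-08). Both genes were lower in either library than in any progenitor sum. In paired cells RPLP1 had -0.38 and RPL26 -0.48 (edgeR adjusted p = 0.0148 and 0.00178). The fall was smaller once cells were paired on total UMI: 8 of 81 genes fell and 0 rose (1.27% and 3.19% of all genes), with a median of -0.26. Between 3000 and 6000 UMI 0 genes were called by edgeR in either direction and 0 had an unadjusted p under 0.05 (1.13% of all genes higher, 0.0582% lower). Between 6000 and 15000 UMI 65 fell and 0 rose (3.96% and 3.07%). No other tool was run on those ranges.

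In neurons 52 of 81 genes fell and 0 rose (14% and 17.5% of all genes), with a median of -0.44 against -0.02. An unadjusted p under 0.05 was reached by 63, and DESeq2 called 49 lower. RPLP2 fell most, from 1670 and 1955 CPM in progenitors to 673 and 891 (log2 fold change -1.05, SE 0.15, edgeR adjusted p = 1.68e-11). RPSA, the small-subunit protein that also serves as a laminin-binding protein, went from 1834 and 2719 to 1194 and 1604 (-0.53, SE 0.14, edgeR adjusted p = 0.00119), and had -0.35 in paired cells (edgeR adjusted p = 0.00556). RPS4X, the X-linked S4 protein, was at 904 and 1222 in progenitors and 766 and 1129 in neurons, values that overlap, and did not pass the test (-0.01, SE 0.15, edgeR adjusted p = 0.974). With cells paired on total UMI, 45 of 81 genes fell and 0 rose (15.8% and 19.4% of all genes), with a median of -0.32. Between 3000 and 6000 UMI 1 gene fell and 0 rose (6.09% and 10.7% of all genes), and between 6000 and 15000 UMI 62 fell and 0 rose (12.9% and 13.8%). Of the 8 early response genes 5 fell in neurons (median log2 fold change -0.81), and the mitochondrial share was 0.291% and 0.225%, against 0.236% and 0.226% in progenitors. The part of these in the result was not tested.

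In noradrenergic neurons 13 of 81 genes rose and 5 fell (16% and 14% of all genes), shares close to or below those of all genes, and the median was 0.05 against -0.07. RPL26L1 rose most, from 100.5 and 103 CPM in progenitors to 167 and 203 (log2 fold change 1.12, SE 0.30, edgeR adjusted p = 0.00118). RPS4X rose from 904 and 1222 to 1306 and 1919 (0.86, SE 0.16, edgeR adjusted p = 1.47e-06). RPL4 fell from 417 and 589 to 222 and 260 (-0.80, SE 0.23, edgeR adjusted p = 0.00379). Their noradrenergic and progenitor values did not overlap. In cells paired on total UMI RPL26L1 (0.68, edgeR adjusted p = 0.152) and RPS4X (0.34, edgeR adjusted p = 0.522) no longer passed, while RPL4 did (-1.20, edgeR adjusted p = 0.000809).

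The noradrenergic calls changed direction with scaling and depth. With total UMI as library size 4 genes rose and 17 fell (12.6% and 21.2% of all genes), and with UMI outside the set 4 rose and 18 fell (12.4% and 21.9%). With cells paired on total UMI, 0 of 80 genes rose and 6 fell (20.9% and 17.2% of all genes), while 7 of 80 had an unadjusted p under 0.05. RPL4, RPL36 and RPLP2 were among the 6, with RPS27, RPS27L and RPS21, and these last names were taken after their values were seen. Between 3000 and 6000 UMI, on 8 and 11 cells, 39 rose and 0 fell (9.12% and 7.39% of all genes). Between 6000 and 15000 UMI 0 rose and 41 fell (12.4% and 11.8%). The mitochondrial share of noradrenergic neurons was 0.614% and 0.58%, above the 0.236% and 0.226% of progenitors, and 2 of the 8 early response genes fell. The part of these was not tested.

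**Figure D4:**
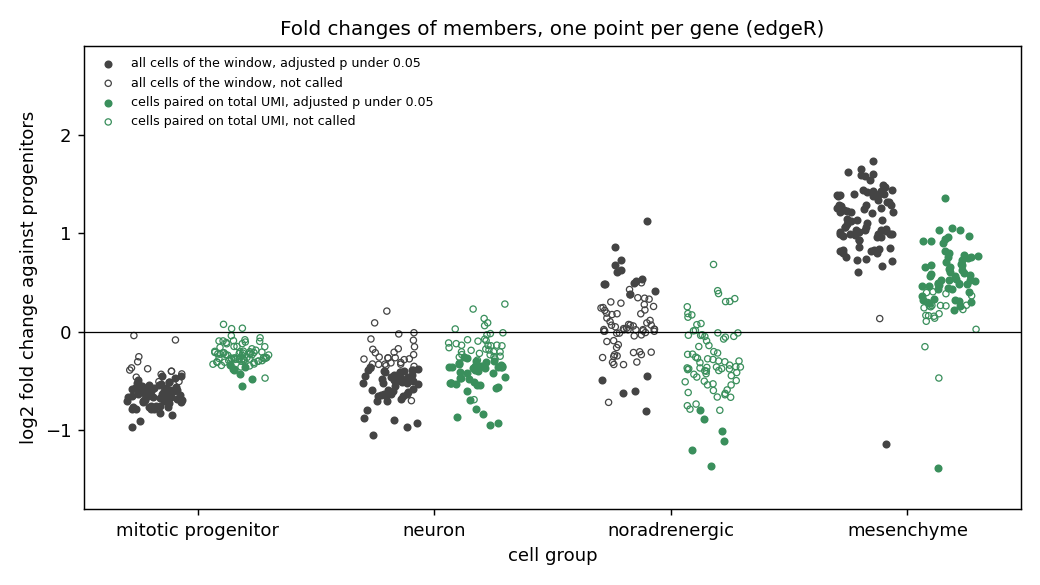
Log2 fold change against progenitors (y axis) of each tested ribosomal protein gene in 4 groups (x axis), for all cells of the window (black) and for cells paired on total UMI (green), with filled points at edgeR adjusted p under 0.05. The cloud of mesenchyme stays above 0 after pairing but moves from a median of 1.12 to 0.48, and that of noradrenergic neurons moves from 0.05 to -0.36.

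A shift common to all ribosomal protein genes does not show whether the make-up of the set differed. For that, each gene was tested as a share of the summed ribosomal protein UMI. In mesenchyme 6 genes gained share and 12 lost it (5.93% and 56% of all genes on this scale). In noradrenergic neurons 10 gained and 11 lost (14% and 14.7%), and in neurons 5 gained and 4 lost (32.5% and 4.04%). These backgrounds hold the shift of all other genes against the set, so no reading of enrichment follows from them. In mitotic progenitors edgeR called 0 genes in either direction (35.2% of all genes), while 4 had an unadjusted p under 0.05, and DESeq2 called 0.

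Neurons and noradrenergic neurons share the progenitor sums they were set against, so their values are given side by side and not as separate evidence. RPLP2 made up 1.53% and 1.38% of ribosomal protein UMI in progenitors, 0.939% and 0.970% in neurons, and 1.12% and 0.723% in noradrenergic neurons. Its log2 change of share was -0.60 in neurons (SE 0.14, edgeR adjusted p = 0.00015) and -0.68 in noradrenergic neurons (SE 0.16, edgeR adjusted p = 0.000166). RPLP2 belongs to the acidic stalk, whose other proteins did not lose share in neurons: the log2 change was 0.14 for RPLP0 and -0.01 for RPLP1, and neither passed the test.

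RPL36, a small protein at the surface of the large subunit, went from 0.972% and 0.814% in progenitors to 0.679% and 0.567% in neurons and 0.608% and 0.491% in noradrenergic neurons (log2 change -0.52 and -0.70, edgeR adjusted p = 0.00433 and 0.00104). RPS9, a small-subunit protein near the mRNA entry, lost share as well, by log2 changes of -0.44 and -0.53 (edgeR adjusted p = 0.00725 and 0.00465). RPL4 lost share in noradrenergic neurons, from 0.383% and 0.416% to 0.218% in either library (-0.87, SE 0.25, edgeR adjusted p = 0.00389). Its change of -0.41 in neurons did not pass the test.

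RPS4X gained share in both neuronal groups. It held 0.829% and 0.863% in progenitors, 1.07% and 1.23% in neurons, and 1.28% and 1.61% in noradrenergic neurons (log2 change 0.44 and 0.77, edgeR adjusted p = 0.0107 and 1.45e-05). RPL9, a large-subunit protein near the site where translation factors bind, held 0.986% and 1.04% in progenitors against 1.47% and 1.48% in neurons and 1.70% and 1.48% in noradrenergic neurons (0.55 and 0.65, edgeR adjusted p = 0.000611 and 0.000179). RPL26L1 gained too (0.66 and 1.04, edgeR adjusted p = 0.0215 and 0.00626), and its main copy RPL26 did so by 0.37 and 0.55 (edgeR adjusted p = 0.0361 and 0.00416). For RPS4X and RPL9 each neuronal value lay above both progenitor values.

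In mesenchyme other genes moved. RPS23, which sits at the decoding site of the small subunit, rose from 1.01% and 1.04% of ribosomal protein UMI to 1.54% and 1.53% (log2 change 0.58, SE 0.15, edgeR adjusted p = 0.000314). RPL23 rose from 1.39% and 1.47% to 1.90% and 2.12% (0.49, SE 0.14, edgeR adjusted p = 0.000978), and RPS16 by 0.46 (SE 0.18, edgeR adjusted p = 0.0215). RPS26, which contacts mRNA at the exit side, went from 0.860% and 0.893% to 0.596% and 0.607% (-0.54, SE 0.16, edgeR adjusted p = 0.00252). RPL7L1 lost most, with a log2 change of -2.27 (SE 0.39, edgeR adjusted p = 7.51e-08), and RPL26L1 changed by -1.01 (SE 0.36, edgeR adjusted p = 0.0104), on 5 and 17 UMI in mesenchyme. RPLP2 and RPS9 lost share here too, by -0.42 and -0.40.

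These shares were examined again in cells with at least 10% of UMI from ribosomal proteins only, a restriction chosen after seeing the data. There 6 genes gained and 9 lost share in mesenchyme (9.13% and 14.6% of all genes), 8 and 5 in neurons (24.5% and 2.14%) and 14 and 13 in noradrenergic neurons (33.1% and 4.06%). Of the genes called in all cells of the window, 14 of 18 in mesenchyme, 7 of 9 in neurons and 20 of 21 in noradrenergic neurons were called again. RPS4X kept log2 changes of 0.44 in neurons and 0.77 in noradrenergic neurons, and RPS23 in mesenchyme had 0.61. RPL26L1 no longer passed in mesenchyme (-0.72, edgeR adjusted p = 0.154) or in neurons (0.61, edgeR adjusted p = 0.0908), RPS16 did not in mesenchyme (0.45, edgeR adjusted p = 0.0531), and RPS9 did not in noradrenergic neurons (-0.34, edgeR adjusted p = 0.051) or in mesenchyme (-0.25, edgeR adjusted p = 0.154).

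With cells paired on total UMI, 11 genes gained and 13 lost share in mesenchyme (12.3% and 29.7% of all genes), 8 and 7 did so in neurons (31.3% and 7.36%), and 4 and 4 in noradrenergic neurons (19.5% and 6.82%). RPS4X, RPL9, RPLP2 and RPL36 passed again in both neuronal groups, and RPS23, RPL23, RPS26 and RPL7L1 in mesenchyme. In noradrenergic neurons RPL4 (-0.89, edgeR adjusted p = 0.184), RPS9 (-0.48, edgeR adjusted p = 0.111), RPL26 (0.57, edgeR adjusted p = 0.0722) and RPL26L1 (0.98, edgeR adjusted p = 0.18) no longer passed, at values close to those in all cells. In mesenchyme RPL26L1 (-0.97, edgeR adjusted p = 0.0706), RPS16 (0.45, edgeR adjusted p = 0.0515), RPLP2 (-0.25, edgeR adjusted p = 0.074) and RPS9 (-0.25, edgeR adjusted p = 0.0799) did not.

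**Figure D5:**
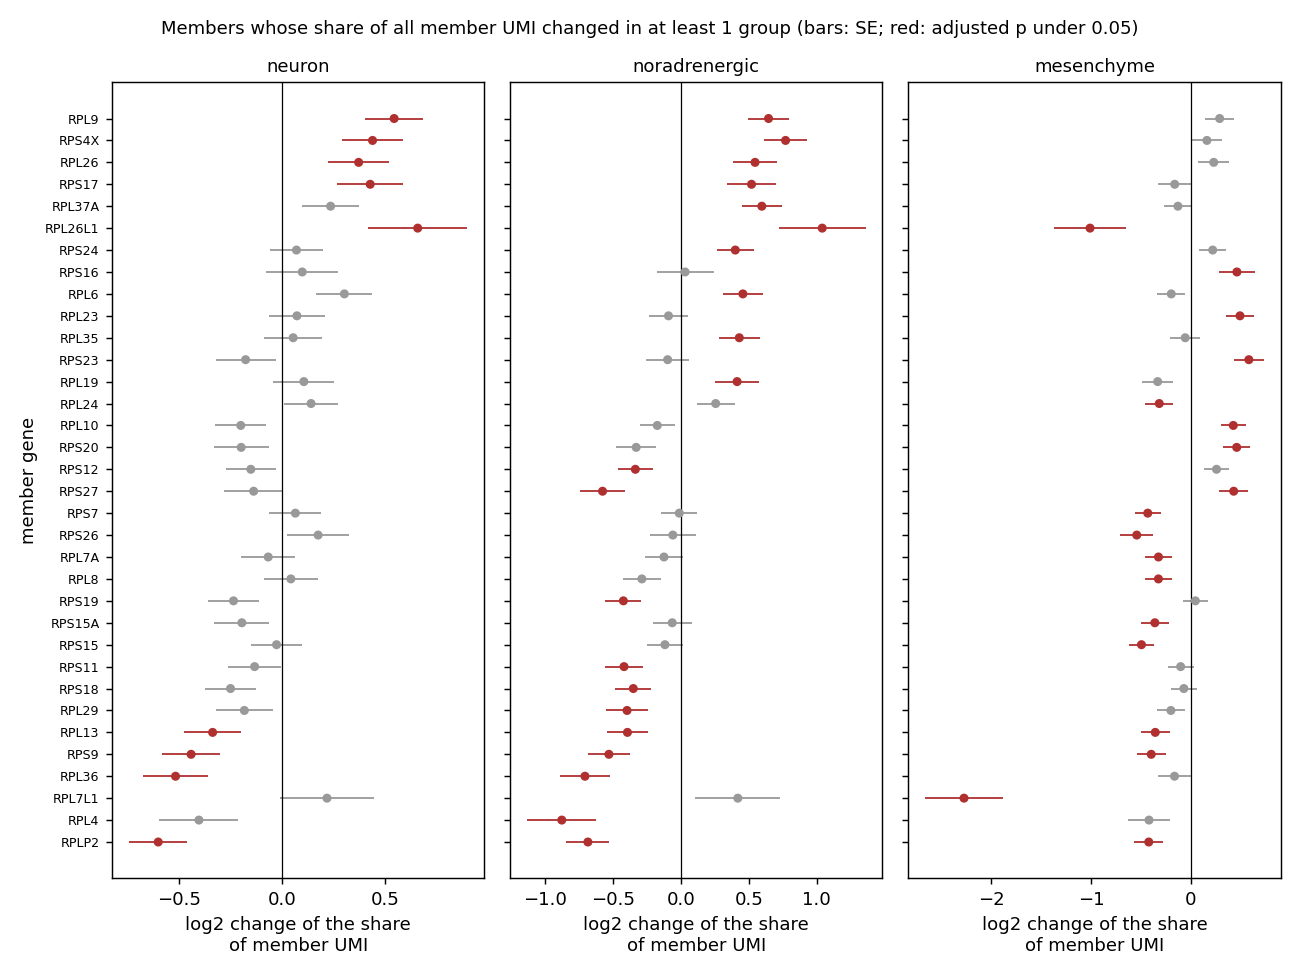
Log2 change of each gene's share of the summed ribosomal protein UMI against progenitors (x axis, bars are SE) in neurons, noradrenergic neurons and mesenchyme, for the genes that passed in at least 1 of these groups (y axis), with red for edgeR adjusted p under 0.05. The x scale differs between panels. RPL9 and RPS4X lie right and RPLP2, RPL36 and RPS9 left in both neuronal groups, and RPL7L1 stands apart in mesenchyme.

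The paralogs and their main copies did not always move alike across groups. RPS27L, a p53 target, was at 148 and 142 CPM in progenitors, 66.4 and 68.6 in neurons and 303 and 299 in mesenchyme (log2 fold change -0.93 in neurons and 1.54 in mesenchyme, edgeR adjusted p = 0.000123 and 1.99e-09). RPS27, its main copy, moved the same way by -0.59 and 1.59, and in paired mesenchyme cells by 0.98. RPL7 rose by 1.05 in mesenchyme where RPL7L1 fell by 1.14. In paired cells RPL7 rose by 0.31 (edgeR adjusted p = 0.0286) and RPL7L1 fell by 1.38 (edgeR adjusted p = 0.0238). RPL22L1 rose by 1.07 in mesenchyme (SE 0.42, edgeR adjusted p = 0.0448), on 7 and 14 UMI, and RPL22 rose by 0.86. Neither passed in paired cells (0.30 and 0.27, edgeR adjusted p = 0.716 and 0.248). RPL36AL and RPL36A rose by 1.40 and 1.02 there, and in paired cells RPL36AL rose by 0.92 while RPL36A, at 0.49, did not pass (edgeR adjusted p = 0.208). RPL39, which sits in the exit tunnel, rose by 1.43 in mesenchyme and 0.49 in noradrenergic neurons (edgeR adjusted p = 0.0258). In paired cells it rose by 0.92 in mesenchyme and, at 0.17, did not pass in noradrenergic neurons (edgeR adjusted p = 0.724).

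Genes that make or work with the ribosome were counted in the same edgeR fit, from lists chosen with results of these data known. Of all genes 14.6% were called higher and 11.5% lower in mesenchyme, 3.09% and 2.61% in mitotic progenitors, 17.5% and 14% in neurons, and 16% and 14% in noradrenergic neurons. FAU rose in mesenchyme, by 1.22 on the log2 scale, and fell in mitotic progenitors and neurons, by 0.64 and 0.43. Its value in noradrenergic neurons, 0.38, did not pass the test (edgeR adjusted p = 0.0657). In paired cells FAU had 0.56 in mesenchyme, and in mitotic progenitors it no longer passed (-0.29, edgeR adjusted p = 0.132). Of the 20 translation factors and other TOP genes 15 rose in mesenchyme, 8 fell in mitotic progenitors, 6 fell in neurons, and 5 rose and 1 fell in noradrenergic neurons. Their medians were 0.99, -0.47, -0.29 and 0.31. In paired cells 5 rose in mesenchyme, 1 fell in mitotic progenitors, 5 fell in neurons, and 1 of 19 rose and 1 fell in noradrenergic neurons. Of all genes in paired cells 19.4% were called higher in mesenchyme, 1.27% lower in mitotic progenitors and 15.8% lower in neurons. For noradrenergic neurons these were 20.9% higher and 17.2% lower. The paired counts of TOP genes in mesenchyme and neurons were thus not far above those shares, and in noradrenergic neurons they were below them. EEF1A1, which brings aminoacyl-tRNA to the ribosome, was at 2913 and 3906 CPM in progenitors and 6697 and 6580 in mesenchyme, and TPT1 went from 1198 and 1625 to 5414 and 5868 (log2 fold change 1.45 and 2.49, edgeR adjusted p = 3.60e-22 and 8.72e-59). In paired cells EEF1A1 rose by 0.75. EEF1D, a subunit of the exchange factor for EEF1A1, was the TOP gene that fell in noradrenergic neurons, from 327 and 390 to 92.6 and 81.3 (-1.79, edgeR adjusted p = 1.14e-07).

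Ribosome assembly factors did not follow the ribosomal proteins in mesenchyme. Of 17 tested 3 fell there, 1 fell in mitotic progenitors, 12 fell in neurons and 6 fell in noradrenergic neurons, and the others did not pass the test. The share that fell was above that of all genes in noradrenergic neurons and most of all in neurons. The counts in mesenchyme and mitotic progenitors were too small to set against those shares. In paired cells 12 of 17 fell in neurons and 3 of 8 in noradrenergic neurons (15.8% and 17.2% of all genes). There 1 of 7 fell in mesenchyme and 0 of 17 in mitotic progenitors (11.5% and 1.27% of all genes). NCL (nucleolin) was at 711 and 855 CPM in progenitors and 338 and 370 in neurons, and NPM1 (nucleophosmin) at 659 and 811 against 351 and 359 (log2 fold change -0.98 and -0.88, edgeR adjusted p = 4.99e-09 and 1.75e-07). Of 74 mitochondrial ribosomal proteins, which serve the separate ribosome of that organelle, 6 rose and 1 fell in mesenchyme, 13 fell in neurons, and 4 rose and 2 fell in noradrenergic neurons. These counts lie below the share of all genes called in mesenchyme and noradrenergic neurons, and in neurons the 13 of 74 are near it. Of 8 S6 kinase genes tested 3 fell in mesenchyme, 2 rose in neurons, and 1 rose and 1 fell in noradrenergic neurons, counts too small to set against those shares.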

How the data were processed

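The deposited table holds raw UMI counts per gene and barcode, unnormalised, which the authors made with Cell Ranger, R 4.1.2 and Seurat 4.3.0 on bosTau9, per the submitters' processing notes. The number at the start of each column name gave its library, and 0 columns belonged to other samples. No source used here describes the sort gate. Cells needed at least 500 genes and 1000 UMI, which left 4159 of 4437. No doublet caller was run, so doublets may remain in any group. A cell entered a group with at least 3 markers of its list detected in 2000 UMI thinned from the genes outside the set. It also had to lead every other list by at least 2, with exceptions for related lists. Noradrenergic neurons need not lead the neuron list, newborn neurons the neuron and progenitor lists, or floor and roof plate cells the progenitor list. Neurons in turn needed fewer than 3 noradrenergic and newborn neuron markers, and progenitors fewer than 3 newborn neuron, floor plate and roof plate markers. Cells with fewer than 2000 UMI outside the set got no group. These limits were set after the number of cells per group, but not their ribosomal protein levels, had been seen. Mitotic progenitors also needed 3 mitotic markers.

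Window cells were thinned to 3000 UMI with a fixed seed and summed by group and library (at least 20 cells each). The 10 sums were fitted with edgeR 4.0.16 in R 4.3.3 (glmQLFit, robust, filterByExpr, TMM, library as an additive term, Benjamini-Hochberg over all genes, threshold 0.05), with 4 residual degrees of freedom. The library term acts as a replicate block, because the groups of one library come from the same suspension. The fit of shares used summed ribosomal protein UMI as library size. Pairing allowed a difference of 10% in UMI. Each paired comparison was a separate fit of that group and its paired progenitors alone, with fewer residual degrees of freedom. It covered 3417 genes for mesenchyme, 7890 for mitotic progenitors, 9255 for neurons and 3195 for noradrenergic neurons. Passing or not in paired cells is therefore not a like-for-like comparison with the main fit. On simulated counts the fit recovered 41.8% of 2-fold changes in mesenchyme (8704 genes, 6 false calls), 79.1% in mitotic progenitors (8813 genes, 4 false calls), 89.6% in neurons (8750 genes, 3 false calls) and 38.8% in noradrenergic neurons (8757 genes, 1 false call). Of 1.5-fold changes it recovered 19.4%, 23.9%, 40.3% and 10.4% in the same order. Each gene was simulated independently and without a library effect. The false calls thus do not show how often a set that moves together would be called. Alternatives were DESeq2 1.42.0, other scalings, filters, depth ranges and gates, no library term, and each library left out.

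The ribosomal protein genes, the other lists and the markers were chosen with earlier results of these data known. Named were the 3 largest gains and 3 largest losses of share per group that passed with the same direction in both libraries, the 5 highest and 5 lowest genes, and a list of stalk proteins, paralogs and their main copies. Gene names were used as deposited, and all 82 matched RefSeq symbols. Some genes that this rule named are not reported here.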

Additional observations from a re-analysis of the deposited data

How the results depend on the processing

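Matched differences in percentage points, in the order mitotic progenitors, neurons and mesenchyme, were -0.381, -0.785 and 7.44 at 3000 to 6000 UMI, -2.54, -5.33 and 0.257 at 6000 to 15000 UMI, and -2.74, -4.83 and 6.14 when UMI outside the set served for window and pairing. With all cells neurons gave -2.97 and mesenchyme 2.89, and with a stricter gate mitotic progenitors gave -1.14 and mesenchyme 3.58. The stricter gate needed 4 markers, and its exclusions between related lists also began at 4. It was therefore not stricter for every group, and neurons numbered 216 and 262 there against 211 and 238 in the main gate. Mesenchyme gave 2.57 without mitochondrial and globin UMI. Noradrenergic neurons reversed to 3.22 at 3000 to 6000 UMI. The difference by GFP was 6.83 points with at least 3 GFP UMI. Leaving out either library kept each direction, and moved the noradrenergic difference to -1.43 without replicate 1 and -6.58 without replicate 2.

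Without the library term (no replicate block) genes called lower were 18 in mitotic progenitors and 20 in neurons, noradrenergic neurons had 6 higher and 2 lower, and mesenchyme had 78 higher. Of all genes 1.26% were lower in mitotic progenitors and 12.1% in neurons, 15.4% higher and 13.3% lower in noradrenergic neurons, and 14.3% higher in mesenchyme. Changes of share called without the replicate block were 11 in mesenchyme, 2 in neurons, 11 in noradrenergic neurons and 0 in mitotic progenitors.

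In noradrenergic neurons genes called higher and lower were 8 and 9 with no filter, 1 and 18 with all cells unthinned, 39 and 0 at 3000 to 6000 UMI, 0 and 41 at 6000 to 15000 UMI, 4 and 17 with total UMI as library size, and 4 and 18 with UMI outside the set. Higher calls were 7 with the stricter gate and 0 in paired cells. Mitotic progenitors had 22 lower with all cells unthinned, 0 at 3000 to 6000 UMI and 8 in paired cells, and neurons had 1 at 3000 to 6000 UMI. At 3000 to 6000 UMI log2 fold changes reversed for RPLP0 (0.44), RPSA (0.059) and RPS6 (0.073) in mitotic progenitors, for RPLP1 (0.32), RPSA (0.18), RPS6 (0.16) and the median gene (0.0034) in neurons, and for RPLP2 (0.32) in noradrenergic neurons. Fewer cells enter these ranges, and the cause was not tested.

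Calls of changed share were 5 in neurons with DESeq2, 2 with all cells, 0 at 3000 to 6000 UMI and 15 in paired cells. At 3000 to 6000 UMI they were 4 in mesenchyme and 4 in noradrenergic neurons, which had 8 in paired cells. Mitotic progenitors had 2 at 6000 to 15000 UMI and 1 with the stricter gate. Of 1187 values of single genes for share, 1005 were rated the same. With a test, this meant the same direction and the same side of the threshold. With a library left out, it meant within 1 SD (over the 2 libraries) of the main value, and no threshold was checked. A further 109 moved, a class that holds changes of sign in genes not called in the main fit, 62 became weaker and 11 stronger. Among genes called in the main fit of shares 0 values changed sign. Genes not called there and still not called, with the same direction, count as the same. In the fit over all genes 238 of 336 values of single genes were rated the same. There 50 moved, 33 became weaker, 8 stronger and 7 reversed.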

Other observations

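In 7 window cells, 4 in replicate 1 and 3 in replicate 2, ribosomal proteins gave over 50% of UMI. These cells had 525 to 1275 detected genes, and 6 of the 7 had no marker group, the other being epithelial. Some of them had fewer than the 2000 UMI outside the set that a group required. For those, the lack of a group follows from the high share and says nothing about their markers. ZC3H10 and EEF1A1 were among their highest other genes.

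ZC3H10 was one of the genes outside the set that followed it most closely. It stood at 2841 and 3667 CPM, which is as high as the leading ribosomal proteins, from 91187 UMI in all. Its level in progenitors at 10% or more was 11.6 and 11.9 times that in progenitors below 5%. In the edgeR fit it rose in mesenchyme and noradrenergic neurons by log2 fold changes of 1.39 and 0.40 (edgeR adjusted p = 6.67e-20 and 0.029) and fell in mitotic progenitors and neurons by 0.84 and 0.37 (edgeR adjusted p = 6.39e-07 and 0.0308). In paired cells it rose in mesenchyme by 0.59 and passed in mitotic progenitors (-0.40, edgeR adjusted p = 0.00603), but not in neurons (-0.22, edgeR adjusted p = 0.092) or noradrenergic neurons (-0.0044, edgeR adjusted p = 0.995). No source used here says how reads that overlap more than 1 gene were assigned, so these are values of the reads given that name, and whether they come from ZC3H10 transcripts was not tested. In RefSeq's ARS-UCD2.0 gene order it lies between ESYT1 and PA2G4.

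Over cells of any depth, trophoblast cells (5 and 6) had median shares of 34.9% and 36.6%, and erythroid cells (7 and 14) had 17.1% and 18.1%.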
